A study of Mus musculus with 8 samples.

Results

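Solute carriers are the membrane proteins that move sugars, amino acids, nucleosides, metals, ions and vitamins into cells and between the cytosol and organelles. The genes described here are the rows of the deposited table of normalized read counts whose symbol is Slc followed by a digit and whose mean over 8 libraries of RAW macrophages was at least 10. This gave 197 genes out of 373 rows with such a symbol and 24421 rows in all, and 11647 genes of any kind reached the same mean. The genes were thus chosen by their measured mean, and that they are present in RAW macrophages is no finding. The genes nearest the limit were Slc22a18 (mean 9.59) and Slc18a1 (9.12) outside it and Slc26a9 (10.9) and Slc16a9 (11.1) inside it. Of the 176 rows left out, 80 were at 0 in every library, 64 had a mean above 0 and under 1, and 32 had a mean between 1 and 10. Of the 197 genes, 5 meet the rule by their symbols without being carriers, and they are counted in the classes of their numbers. Slc9a3r1 and Slc9a3r2 encode scaffold proteins that bind transporters, Slc4a1ap an adaptor protein, Slc7a6os lies on the strand opposite Slc7a6, and Slc2a4rg-ps is named as a pseudogene. A mean of at least 50 was reached by 184 genes, and 13 had a lower one.

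The libraries came from 4 groups of 2: untreated cells (Ctrl), cells given a statin, cells given lipopolysaccharide (LPS) without statin (ctl LPS) and cells given both (statin LPS). RAW macrophages are a mouse macrophage line transformed by a leukaemia virus, statins block HMG-CoA reductase in cholesterol synthesis, and LPS is a bacterial surface molecule that activates Toll-like receptor 4. Per the labels, 7 µM statin was used along with serum depleted of lipoproteins, and LPS was used at 100 ng/ml for 3 h in medium that contained albumin. The study names the statin as lovastatin and states that mevalonate was added with it. Whether cells without statin had the same serum or mevalonate is not stated, so each statin comparison is of the whole treatment, and each LPS comparison may hold a change of medium. No source says that the 2 libraries of a group came from separate cultures, so p-values measure the spread between these libraries only, which may be technical.

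Reads over genes came to between 37001178 and 76423673 per library, of which the 197 genes took 1.28 to 1.73%. The 8 macrophage markers, Lyz2, Csf1r and Cd68 among them, were present in every library, while lymphocyte markers summed to at most 3.98 and epithelial ones to at most 0.98. Library 1 of ctl LPS stood apart by the complement genes C1qa, C1qb and C1qc, which summed to 1634 against 1.25 in library 2, 273 and 365 in statin LPS and at most 5.88 in resting cells. Its 6 fibroblast genes summed to 805 against 1.25 in library 2 and 315 and 402 in statin LPS. Library 2 of statin held 1.72% of its reads in the ribosomal RNA row Rn45s, where the others held 0.0705 to 0.153%. Of the 197 genes, 2 differed more than 2-fold between the ctl LPS libraries, Slc13a3 (29.4 and 12.5) and Slc40a1 (21.0 and 6.26). The Ctrl pair was the least alike, with a robust SD of the log2 ratio between its libraries of 0.239 over the 197 genes, against 0.178 in statin, 0.0794 in ctl LPS and 0.0914 in statin LPS.

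In macrophages, solute carriers decide what is available to the cell and to what it has engulfed. Arginine imported by the cationic amino acid carriers feeds nitric oxide synthase, cystine taken up by the Slc7a11 and Slc3a2 pair feeds glutathione, and the glucose and lactate carriers serve glycolysis. Metal carriers such as Slc11a1, Slc40a1, Slc30a1 and the Slc39 family withhold iron, zinc and manganese from microbes or recycle them, and the lysosomal peptide and histidine carriers Slc15a3 and Slc15a4 act beside endosomal Toll-like receptors.

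The starts of a pair of genes described below are shown because each carries letters known from its own regulation. Slc30a1, the zinc exporter, responds to zinc through metal response elements (core searched here as TGCACNC or TGCGCNC). Slc7a11, the cystine carrier, responds to amino acid shortage through amino acid response elements (core searched as TGATGNAA). No result below rests on these letters, and their part in any change was not tested. Both strands were searched, in 250 bases before and 50 after each start. RefSeq promoters on the build GRCm38.p6 were at hand for 150 of the 197 genes. Capitals mark the matches, which lie on the printed strand or its complement. Slc30a1 is on the plus strand at chr1:191906531-191906830 and Slc7a11 on the minus strand at chr3:50443564-50443863, both printed 5′ to 3′ in the direction of the gene.
Slc30a1: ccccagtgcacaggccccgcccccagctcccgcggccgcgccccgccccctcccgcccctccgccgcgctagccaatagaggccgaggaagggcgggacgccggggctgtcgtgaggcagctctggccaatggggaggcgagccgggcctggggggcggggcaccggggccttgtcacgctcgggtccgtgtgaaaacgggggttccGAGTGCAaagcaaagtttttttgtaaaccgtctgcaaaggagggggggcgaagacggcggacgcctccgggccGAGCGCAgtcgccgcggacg
Slc7a11: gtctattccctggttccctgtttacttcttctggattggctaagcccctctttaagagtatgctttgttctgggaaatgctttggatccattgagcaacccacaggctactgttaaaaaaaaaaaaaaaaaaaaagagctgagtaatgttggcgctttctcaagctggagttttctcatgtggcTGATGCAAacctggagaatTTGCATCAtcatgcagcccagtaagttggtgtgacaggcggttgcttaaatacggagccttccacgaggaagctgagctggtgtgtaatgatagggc
In the Slc30a1 window 2 matches begin at positions -43 and 31 from the gene start, and 25.7% of all promoters and 33.0% of those of solute carrier genes hold at least 1. In the Slc7a11 window 2 matches begin at -66 and -47, and the core is in 3.97% of all promoters and 2.91% of those of solute carrier genes. A match is a description of the letters and not evidence of a bound factor.

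Per kb of exon, the level was highest for Slc25a5, an exchanger of ADP and ATP in the inner mitochondrial membrane, at 16863 normalized reads per kb on average, and next for Slc6a12, a carrier of betaine and GABA, at 7966. Slc2a6, a glucose carrier family member of lysosomes, followed at 6931, and Slc3a2, the shared heavy chain of several amino acid exchangers, at 5204. The median of the 197 genes was 338 normalized reads per kb. Slc6a12 falls outside the rule for named genes and was chosen after its values were seen.

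At rest, the statin treatment raised carriers of cystine (Slc7a11), glucose (Slc2a1), myo-inositol (Slc5a3), lactate (Slc16a3), lysosomal peptides (Slc15a3) and iron (Slc40a1, Slc11a2), and lowered the nucleoside carrier Slc28a2, the amino acid exporter Slc7a7 and the exchanger Slc24a5. Changes are given below in log2 units with the standard error (SE) of a limma fit to log2 of the normalized count plus 1, and p-values are adjusted by the method of Benjamini and Hochberg over all 11647 genes. In all, 78 of the 197 genes were higher at an adjusted p under 0.05, beside 30.4% of all genes tested, and 35 were lower, beside 25.7%. The median log2 change was 0.127 over the solute carrier genes and 0.0116 over all genes. Changes past 2-fold were seen in 21 genes that rose, beside 6.83% of all genes, and 6 that fell, beside 5.55%. The groups did not overlap in 141 genes (71.6%), against 75.4% of all genes. With only these 4 libraries in the fit, 55 rose and 20 fell, beside 2491 and 1992 of all 11647 genes. With ctl LPS replicate 1 and statin replicate 2 left out, the median was 0.142 over the solute carrier genes and 0.0056 over all genes. When every library was scaled to the same total, 61 rose and 44 fell, beside 2738 and 4035 of all genes. The median of all genes then moved to -0.10.

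Under LPS, statin cells had more mRNA for the ergothioneine carrier Slc22a4, the iron exporter Slc40a1, the nucleoside carrier Slc29a2 and the cystine carrier Slc7a11 than ctl LPS cells, and less for Slc28a2, the mitochondrial glutamate carrier Slc25a22, the lysosomal carrier Slc46a3 and the zinc carriers Slc39a2 and Slc30a1. Here 80 genes were higher (31.4% of all genes tested were) and 67 lower (32.9% of all genes). The median log2 change was 0.108, against -0.014 over all genes, and 28 genes rose (8.56% of all genes did) and 26 fell (11.2%) past 2-fold. The groups did not overlap in 183 genes (92.9%), against 88.5% of all genes. With equal totals, 111 rose and 38 fell, beside 6159 and 2065 of all 11647 genes, with the median of all genes at 0.33. The statin comparisons at rest and under LPS share no library. Here 44 genes were higher in both (22.3%, beside 13.1% of all genes) and 21 lower in both (10.7%, beside 10.4%). A further 21 were higher at rest and lower under LPS (10.7%, beside 8.34%) and 4 lower at rest and higher under LPS (2.03%, beside 6.59%).

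**Figure D1:**
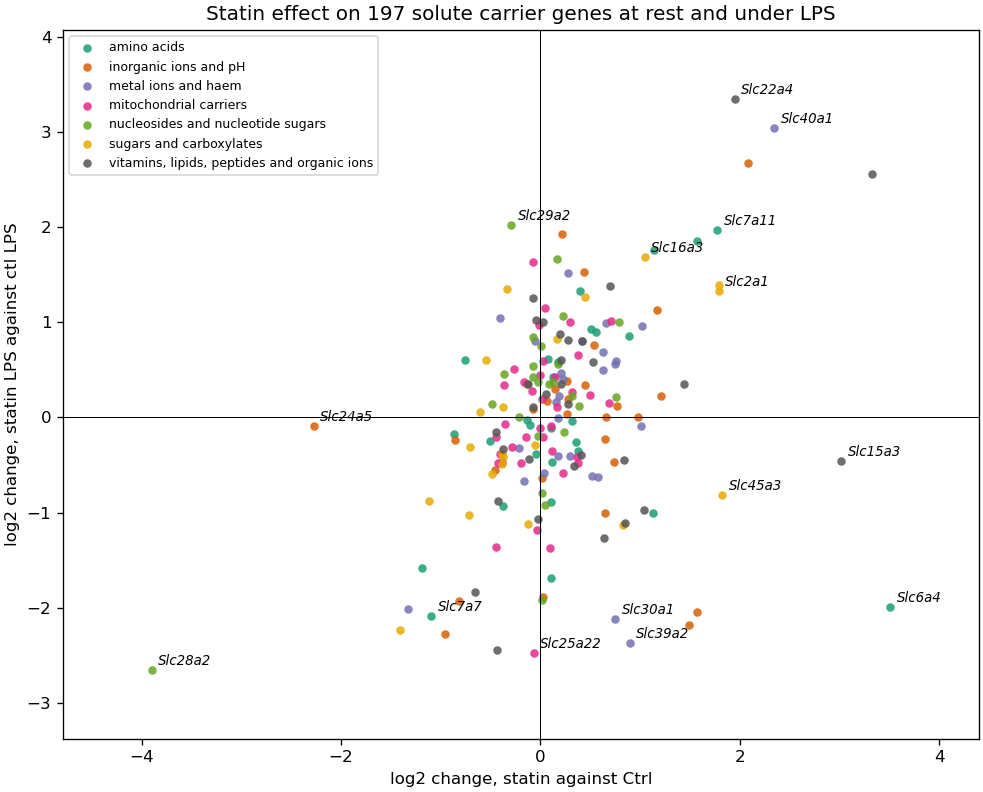
Log2 change of the 197 solute carrier genes by statin at rest (horizontal axis, statin against Ctrl) and under LPS (vertical axis, statin LPS against ctl LPS); each point is a gene, coloured by substrate class. Slc7a11, Slc2a1 and Slc40a1 lie at the upper right and Slc28a2 at the lower left, while Slc30a1 and Slc39a2 lie at the lower right, higher with statin at rest and lower with it under LPS. Slc15a3 lies at the right at a vertical value of -0.46, which was not called under equal totals or quantile normalization.

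LPS without statin changed more carriers past the test than statin did at rest, and the same held over all genes. Of all 11647 genes, 4648 were higher and 4384 lower with LPS without statin, against 3544 and 2998 with statin at rest. Slc7a2, which imports arginine, rose from almost nothing, and Slc39a2, Slc15a3, Slc4a7 and the copper carrier Slc31a2 also rose by several log2 units, while Slc16a12, Slc7a4, Slc26a11, Slc29a2 and Slc43a2 fell. Of the 197 genes 75 were higher in ctl LPS than in Ctrl, beside 39.9% of all genes, and 80 were lower, beside 37.6%. The median log2 change was -0.083, against 0.024 over all genes, and 42 rose past 2-fold, beside 19.5% of all genes, and 44 fell, beside 17.4%. The groups did not overlap in 178 genes (90.4%), against 88.4% of all genes. This comparison depended on the scaling. With equal totals 38 rose and 134 fell, beside 2114 and 7993 of all genes, and the median of all genes stood at -0.79.

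In statin cells, LPS again raised Slc7a2, Slc39a2, Slc28a2, Slc39a14, Slc15a3 and Slc4a7 and lowered Slc16a12, Slc5a3, Slc43a2, Slc7a4, Slc25a42 and Slc25a45. Statin LPS was higher than statin in 52 genes, beside 29.2% of all genes, and lower in 80, beside 29.0%. The median was -0.125, against -0.017 over all genes. The groups did not overlap in 170 genes (86.3%), against 83.6% of all genes. With equal totals 28 rose and 123 fell, beside 1556 and 6691 of all 11647 genes, with the median of all genes at -0.38. With ctl LPS replicate 1 and statin replicate 2 left out, the median was -0.135 over the solute carrier genes and -0.016 over all genes. The comparisons of LPS with and without statin share no library. Here 46 genes were higher in both (23.4%, beside 24.0% of all genes) and 58 lower in both (29.4%, beside 22.3%). A further 6 were higher without statin and lower with it (3.05%, beside 2.21%) and 2 the reverse (1.02%, beside 1.55%).

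**Figure D2:**
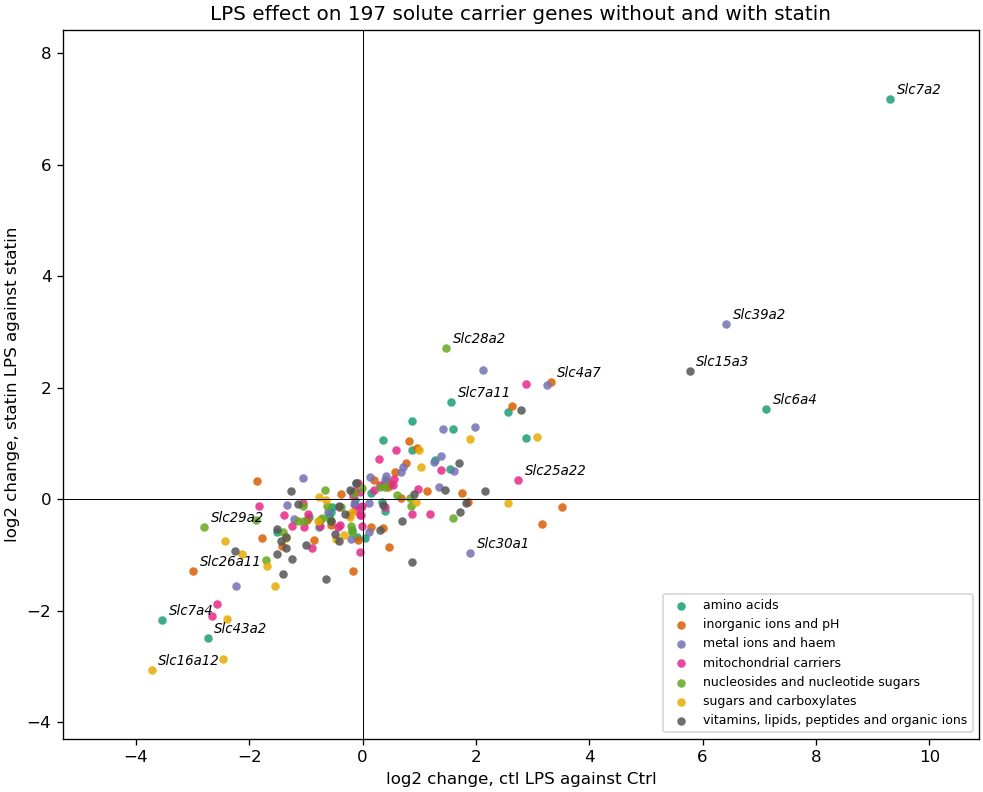
Log2 change of the 197 solute carrier genes by LPS without statin (horizontal axis, ctl LPS against Ctrl) and with it (vertical axis, statin LPS against statin); each point is a gene, coloured by substrate class. Slc7a2 lies far to the upper right (9.31 and 7.18), and Slc25a22 and Slc30a1 lie to the right at vertical values of 0.34 and -0.97, of which the former was not called with equal totals.

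The interaction compares the statin effect under LPS with the statin effect at rest. At an adjusted p under 0.05 it was positive in 52 genes, beside 25.5% of all genes, and negative in 54, beside 30.1%. With equal totals the counts were 106 and 34, beside 5935 and 1892 of all 11647 genes, with the median of all genes at 0.42. With ctl LPS replicate 1 and statin replicate 2 left out, the median interaction was -0.044 over the solute carrier genes and -0.031 over all genes. Among the genes with a mean of at least 50, the most negative were Slc6a4, Slc15a3, Slc39a2, Slc30a1 and Slc45a3. The most positive among them were Slc29a2, Slc24a5, Slc26a11, Slc25a10 and Slc16a6. Slc6a4 reached that mean only through its ctl LPS libraries, the group in which it was high. The values of these genes stand with their classes below.

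**Figure D3:**
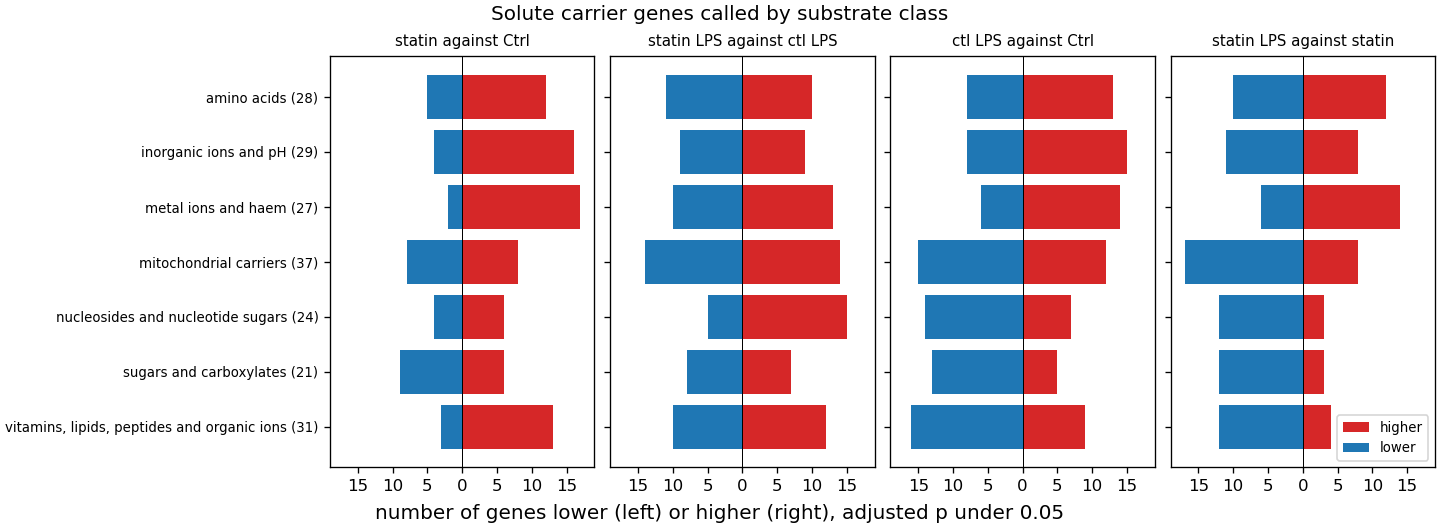
Number of solute carrier genes lower (blue, to the left) or higher (red, to the right) at an adjusted p under 0.05 in each of 4 comparisons, by substrate class, with the number of genes of the class in brackets. Among metal and haem carriers 17 rose and 2 fell with statin at rest (63.0% and 7.41%, beside 30.4% and 25.7% of all genes), and among nucleoside and nucleotide sugar carriers 14 fell and 7 rose with LPS without statin (58.3% and 29.2%, beside 37.6% and 39.9% of all genes).

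The counts of each class below stand beside the same shares of all genes as above: 30.4% higher and 25.7% lower with statin at rest, 31.4% and 32.9% with statin under LPS, 39.9% and 37.6% with LPS without statin and 29.2% and 29.0% with LPS and statin, with medians over all genes of 0.0116, -0.014, 0.024 and -0.017. No class was tested against these shares.

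Amino acid carriers were sorted by family number, and the class numbered 28. Statin raised 12 and lowered 5 at rest, and raised 10 and lowered 11 under LPS. LPS raised 13 and lowered 8 without statin, and raised 12 and lowered 10 with it. Class medians, in the order of these comparisons, were 0.12, -0.10, 0.24 and 0.05. Slc7a11 is the light chain that brings in cystine in exchange for glutamate, and gave normalized counts of 3079.9 and 2476 in Ctrl, 10503 and 8497 with statin, 8096 and 8167 with LPS and 30882 and 32676 with both, where LPS without statin is ctl LPS, both is statin LPS, and each pair of values is libraries 1 and 2. Every library of a statin group stood above those of its partner without statin, and the pair that had both treatments was highest. The log2 change by statin was 1.77 ± 0.12 (SE, adjusted p = 1.92e-05) at rest and 1.97 ± 0.12 (SE, adjusted p = 2.92e-06) under LPS, and that by LPS was 1.56 ± 0.12 (SE, adjusted p = 4.42e-06) without statin. The statin effects in the 2 states differed by 0.19 ± 0.17 (SE, adjusted p = 0.371), which did not pass the test (with equal totals it was 0.65, adjusted p = 0.00975). Slc3a2, its heavy chain, read 12861 and 7732 in Ctrl, 9802 and 9566 with statin, 30425 and 30133 with LPS and 22870.5 and 23538 with both. Slc3a2 was higher with LPS, by 1.60 ± 0.19 without statin and 1.26 ± 0.19 with it on the log2 scale, whereas the statin comparisons gave -0.04 ± 0.19 (SE, adjusted p = 0.867) at rest and -0.38 ± 0.19 (SE, adjusted p = 0.108) under LPS and did not pass. The Ctrl libraries of Slc3a2 lay far apart. Without Ctrl replicate 1 the change at rest was 0.32 (adjusted p = 0.00164) and without Ctrl replicate 2 it was -0.41 (adjusted p = 0.000415). The change under LPS passed without either of them, with only the 4 LPS libraries and with DESeq2.

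Slc7a2 imports arginine and read 10.9 and 6.86 in Ctrl, 19.7 and 20.7 with statin, 6275 and 6045 with LPS and 3133 and 3027 with both. Resting libraries all lay under 21, and the ctl LPS libraries stood highest. Its log2 change by LPS was 9.31 ± 0.18 (SE, adjusted p = 1.64e-09) without statin and 7.18 ± 0.18 (SE, adjusted p = 3.82e-08) with it. Statin LPS was lower than ctl LPS, with a log2 change of -0.9998 ± 0.18 (SE, adjusted p = 0.00149), and statin was higher than Ctrl by 1.13 ± 0.18 (SE, adjusted p = 0.0011) at counts near the limit of detection, an interaction of -2.13 ± 0.26. Slc7a1, the other main arginine importer, read 14661 and 9616 in Ctrl, 11550.4 and 10547 with statin, 21575 and 21664 with LPS and 20080.5 and 20823 with both and its LPS change without statin was 0.86 ± 0.16 (SE, adjusted p = 0.00124), which fell to 0.04 (adjusted p = 0.804) with equal totals and turned to -0.12 (adjusted p = 0.533) with quantile normalization. Slc7a7, which releases cationic amino acids together with Slc3a2, read 519 and 499 in Ctrl, 199.7 and 284 with statin, 3017 and 3019.8 with LPS and 691 and 727 with both. It was lower with statin in both states, with a log2 change of -1.09 ± 0.15 (SE, adjusted p = 0.000417) at rest and -2.09 ± 0.15 (SE, adjusted p = 5.83e-06) under LPS. LPS raised it by 2.57 ± 0.15 without statin and 1.57 ± 0.15 with it, and the interaction was -0.997 ± 0.21 (SE, adjusted p = 0.00366).

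Slc6a12 and Slc5a3 carry betaine and myo-inositol, solutes that cells also gather under osmotic stress. Slc6a12 gave 13823 and 15337 in Ctrl, 46399.5 and 40644 with statin, 8335 and 8666 with LPS and 31355 and 29945 with both. It was higher in both statin groups, with log2 changes of 1.58 ± 0.09 (SE, adjusted p = 7.51e-06) and 1.85 ± 0.09 (SE, adjusted p = 6.28e-07), and lower with LPS, with a log2 change of -0.78 ± 0.09 and -0.50 ± 0.09. Slc5a3, of the sugar class, gave 4069 and 8010.3 in Ctrl, 22525 and 17287 with statin, 1053 and 1012 with LPS and 2890 and 2546 with both. Statin groups were again the higher ones, by 1.79 ± 0.27 (SE, adjusted p = 0.000759) at rest and 1.39 ± 0.27 (SE, adjusted p = 0.00201) under LPS, and LPS lowered it with a log2 change of -2.47 ± 0.27 and -2.86 ± 0.27. The taurine carrier Slc6a6 lay between 21736 and 35634 in all libraries. Its change under LPS was -0.47 ± 0.07 (SE, adjusted p = 0.000559), -0.13 (adjusted p = 0.147) with equal totals and 0.01 (adjusted p = 0.898) with quantile normalization. Slc38a2, which takes up small neutral amino acids, was higher with statin by 0.51 ± 0.09 (SE, adjusted p = 0.00195) at rest and 0.93 ± 0.09 (SE, adjusted p = 4.38e-05) under LPS.

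Slc43a2, a carrier of large neutral amino acids, read 5278 and 5389.5 in Ctrl, 3437 and 4116 with statin, 780.4 and 818 with LPS and 649.9 and 696 with both. It fell with LPS with a log2 change of -2.74 ± 0.09 (SE, adjusted p = 2.2e-08) without statin and -2.48 ± 0.09 (SE, adjusted p = 2.36e-07) with it, and with statin at rest with a log2 change of -0.50 ± 0.09. Slc43a3, which carries adenine although its family put it here, was lower with statin, with a log2 change of -1.18 ± 0.10 (SE, adjusted p = 4.63e-05) at rest and -1.58 ± 0.10 (SE, adjusted p = 3.43e-06) under LPS. The serotonin carrier Slc6a4 gave 1.56 and 0 in Ctrl, 24.2 and 12.2 with statin, 220.1 and 222 with LPS and 51.3 and 58.4 with both, so that only ctl LPS reached a count over 100. At rest 40 reads in statin stood against 2 in Ctrl, a ratio of 21.1 with an exact conditional 95% interval of 5.47 to 180 that covers counting error alone. Under LPS the order was opposite, with a log2 change of -1.99 ± 0.49 (SE, adjusted p = 0.00686). The interaction of -5.50 ± 0.69 (SE, adjusted p = 0.000228) rests at one end on the Ctrl reads. It lay between -6.18 and -4.82 when each library in turn was left out, and between -6.38 and -3.89 over all alternative fits. Slc6a9, a glycine carrier, rose with LPS by 0.87 ± 0.16 (SE, adjusted p = 0.00107) without statin (0.05, adjusted p = 0.758, with equal totals) and 1.41 ± 0.16 (SE, adjusted p = 0.000149) with it, and Slc7a4 fell with a log2 change of -3.53 ± 0.25 (SE, adjusted p = 2.21e-06) and -2.17 ± 0.25 (SE, adjusted p = 0.000146). Of their exon bases, 27.8% of Slc6a9 lie opposite Ccdc24 and 13.3% of Slc7a4 opposite P2rx6, and no source says whether the counting used strand, so reads of the partners may be among these counts.

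**Figure D4:**
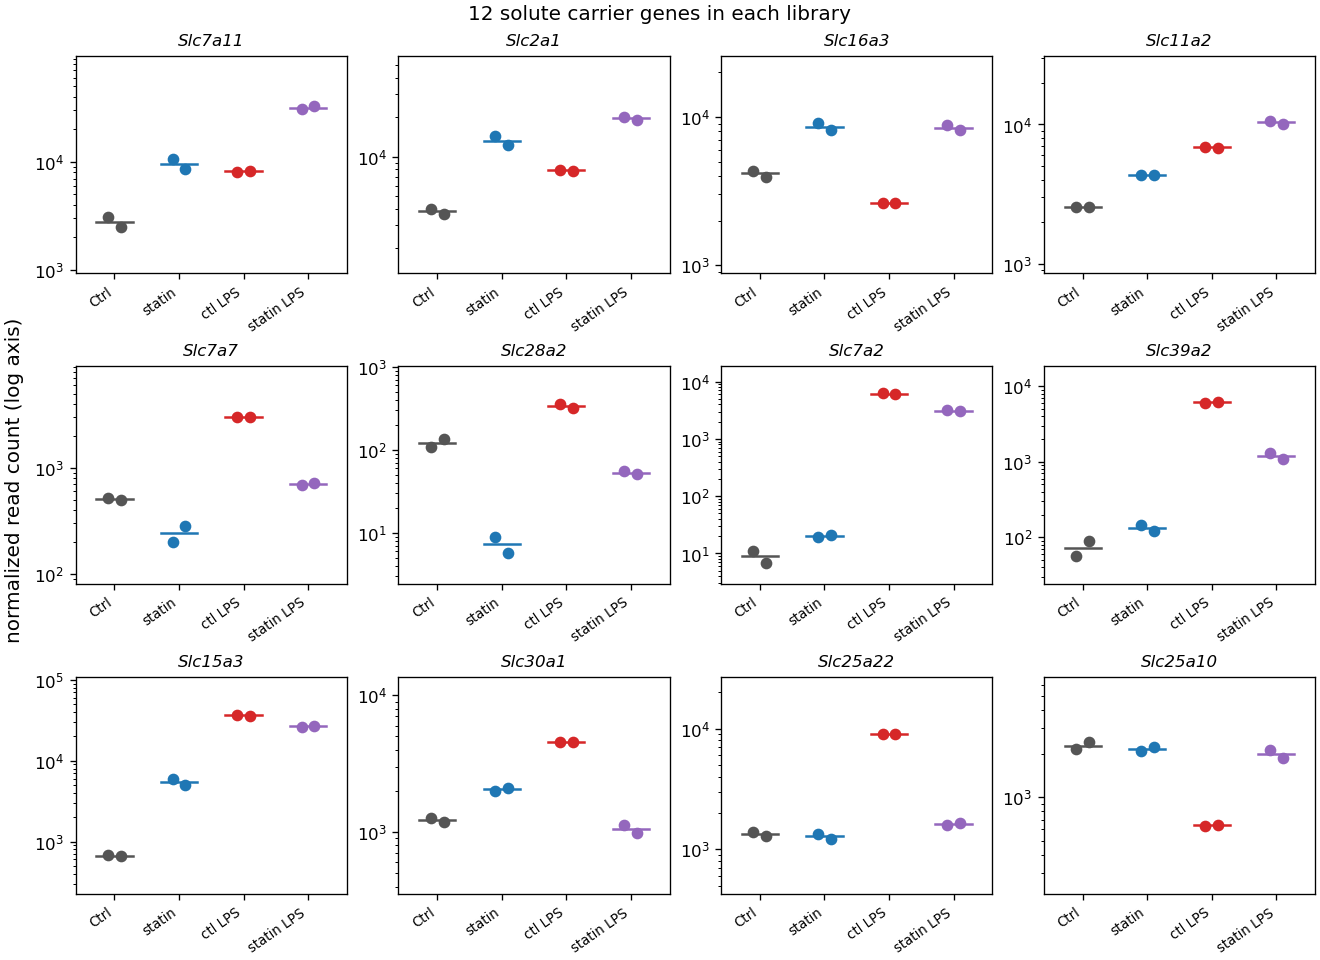
Normalized read count on log axes of 12 solute carrier genes in the 4 groups; each point is a library and each line the mean of its group. In the top row both statin groups lie above their partners without statin, Slc7a2, Slc39a2 and Slc15a3 rise by far the most with LPS, and Slc25a22 is high in ctl LPS alone while Slc25a10 is low there alone.

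Carriers of sugars and carboxylates numbered 21, of which statin raised 6 and lowered 9 at rest and raised 7 and lowered 8 under LPS, while LPS raised 5 and lowered 13 without statin and raised 3 and lowered 12 with it. Their medians in the same order were -0.38, -0.31, -0.65 and -0.39. Slc2a1, the main glucose importer, gave 4011 and 3659 in Ctrl, 14282 and 12245 with statin, 7865 and 7819.9 with LPS and 20194 and 19083 with both. The statin libraries were above their partners in both states, with log2 changes of 1.79 ± 0.08 (SE, adjusted p = 4.72e-06) and 1.32 ± 0.08 (SE, adjusted p = 3.42e-06), and LPS without statin raised it by 1.03 ± 0.08. With equal totals that LPS change was 0.21 (adjusted p = 0.0396). The glucose carrier Slc2a3 read 1960.4 and 1569 in Ctrl, 1074 and 1234 with statin, 697 and 669.8 with LPS and 677 and 750.4 with both. Unlike Slc2a1 it was lower with statin at rest, with a log2 change of -0.61 ± 0.12 (SE, adjusted p = 0.00311), and lower with LPS with a log2 change of -1.36 ± 0.12 and -0.69 ± 0.12. Slc2a6 read 4927 and 7064 in Ctrl, 9859 and 11162 with statin, 48738 and 50786 with LPS and 22596 and 22907 with both. Its groups stood in the order Ctrl, statin, statin LPS and ctl LPS with no overlap, and the statin effect was 0.83 ± 0.15 (SE, adjusted p = 0.0018) at rest and -1.13 ± 0.15 (SE, adjusted p = 0.000226) under LPS, an interaction of -1.96 ± 0.21 (SE, adjusted p = 9.14e-05).

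Slc16a3 exports lactate from glycolytic cells and read 4347 and 3956 in Ctrl, 9066 and 8095 with statin, 2634 and 2643 with LPS and 8749 and 8199 with both. Both statin groups lay between 8095 and 9066 and both groups without it under 4348, so that the statin change was 1.05 ± 0.08 (SE, adjusted p = 2.48e-05) at rest and 1.68 ± 0.08 (SE, adjusted p = 5.79e-07) under LPS, with an interaction of 0.64 ± 0.11. Slc16a1, which moves lactate and pyruvate either way, was lower with statin at rest with a log2 change of -0.38 ± 0.09 (SE, adjusted p = 0.00709), a call that did not hold with only the 4 resting libraries (adjusted p = 0.0559) or with ctl LPS replicate 1 and statin replicate 2 left out (adjusted p = 0.0627). The creatine carrier Slc16a12 gave 2237 and 2927 in Ctrl, 2976 and 2771 with statin, 184 and 202 with LPS and 345 and 340.0 with both. Of the 197 genes it had the largest fall by LPS in both states, with a log2 change of -3.72 ± 0.12 (SE, adjusted p = 2.38e-08) without statin and -3.06 ± 0.12 (SE, adjusted p = 4.25e-07) with it. Slc16a6 gave 3539.8 and 2340.5 in Ctrl, 2330 and 2229 with statin, 527 and 538 with LPS and 1367 and 1355 with both, and 21.5% of its exon bases lie opposite Amz2. LPS lowered it with a log2 change of -2.43 ± 0.16, and statin LPS stood above ctl LPS by 1.35 ± 0.16 (SE, adjusted p = 0.000125), an interaction of 1.69 ± 0.23 (SE, adjusted p = 0.000339). Slc45a3, a putative sugar carrier that shares 13.5% of its exon bases with Gm29103 on the same strand, gave 191 and 281 in Ctrl, 894 and 759 with statin, 1339.9 and 1427 with LPS and 800.4 and 772 with both. With statin it rose at rest by 1.82 ± 0.17 (SE, adjusted p = 6.68e-05) and fell under LPS with a log2 change of -0.81 ± 0.17 (SE, adjusted p = 0.00284), and the interaction was -2.64 ± 0.24 (SE, adjusted p = 3.47e-05).

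Carriers of metal ions and haem numbered 27. Statin raised 17 and lowered 2 at rest and raised 13 and lowered 10 under LPS. LPS raised 14 and lowered 6 without statin and the same numbers with it. The medians in the same order were 0.30, 0.22, 0.40 and 0.34. Slc40a1, ferroportin, the one known exporter of iron, gave 45.3 and 76.4 in Ctrl, 396 and 232 with statin, 21.0 and 6.26 with LPS and 88.7 and 119.5 with both. Statin groups were higher in each state, by 2.34 ± 0.52 (SE, adjusted p = 0.00515) at rest and 3.04 ± 0.52 (SE, adjusted p = 0.000995) under LPS. The call at rest was lost without statin replicate 1 (1.96, adjusted p = 0.0511), and under LPS the change lay between 2.24 (without ctl LPS replicate 2) and 3.84 (without ctl LPS replicate 1). In ctl LPS the library with more Slc40a1 was also the one with C1q and fibroblast reads. Both statin LPS libraries held such reads too (C1q 273 and 365, fibroblast genes 315 and 402). The part of these reads in the level of Slc40a1 was not tested.

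Both iron and manganese carriers of the Slc11 family were higher with statin in both states. Slc11a1, which empties phagosomes of metals, gave 2506 and 3177 in Ctrl, 4751 and 4761 with statin, 4633 and 4399 with LPS and 6533 and 6814 with both, and Slc11a2, which brings ferrous iron out of endosomes, gave 2535 and 2569.8 in Ctrl, 4322 and 4307 with statin, 6898 and 6816 with LPS and 10558 and 10150 with both. For Slc11a1 the statin change was 0.75 ± 0.10 (SE, adjusted p = 0.000433) at rest and 0.56 ± 0.10 (SE, adjusted p = 0.00137) under LPS. Its LPS change was 0.68 ± 0.10 (SE, adjusted p = 0.00029) without statin and 0.49 ± 0.10 (SE, adjusted p = 0.00365) with it. With equal totals neither was called (-0.14, adjusted p = 0.217, and 0.13, adjusted p = 0.288), nor was the latter with quantile normalization (0.27, adjusted p = 0.0888). For Slc11a2 the statin change was 0.76 ± 0.05 (SE, adjusted p = 1.94e-05) and 0.59 ± 0.05 (SE, adjusted p = 2.16e-05), and LPS raised it by 1.43 ± 0.05 without statin and 1.26 ± 0.05 with it. Slc39a14, which takes up zinc and iron, gave 2890.2 and 2243 in Ctrl, 3012 and 2943 with statin, 11127 and 11185 with LPS and 14469 and 15149 with both. It rose with LPS by 2.13 ± 0.10 (SE, adjusted p = 2.35e-07) and 2.31 ± 0.10 (SE, adjusted p = 7.71e-07).

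Of the 12 Slc39 genes, most of them zinc importers, statin raised 6 and lowered 2 at rest and raised 6 and lowered 5 under LPS. Of the 6 Slc30 genes, most of which move zinc out of the cytosol, it raised 4 at rest and raised 1 and lowered 3 under LPS. Of all genes, 30.4% were higher and 25.7% lower at rest, and 31.4% and 32.9% under LPS, and neither family was tested against these shares. Slc30a1 moves zinc out of the cell and gave 1262 and 1188 in Ctrl, 2010.3 and 2117 with statin, 4552 and 4572 with LPS and 1130.1 and 983 with both. Statin raised it at rest by 0.75 ± 0.08 (SE, adjusted p = 0.00013), while under LPS the statin libraries held under 25% of the level of ctl LPS, a change of -2.11 ± 0.08 (SE, adjusted p = 2.48e-07). LPS raised it by 1.90 ± 0.08 without statin and lowered it with a log2 change of -0.97 ± 0.08 with it, and the interaction was -2.87 ± 0.11 (SE, adjusted p = 1.06e-06). Slc39a2, a zinc importer, gave 57.0 and 88.2 in Ctrl, 147 and 120.3 with statin, 6027 and 6224 with LPS and 1294 and 1084 with both. Its rise by LPS was 6.41 ± 0.20 (SE, adjusted p = 1.54e-08) without statin and 3.15 ± 0.20 (SE, adjusted p = 4.94e-06) with it, so statin LPS lay lower than ctl LPS, with a log2 change of -2.37 ± 0.20 (SE, adjusted p = 1.61e-05), and the interaction was -3.27 ± 0.28 (SE, adjusted p = 2.65e-05). At rest its statin change of 0.90 ± 0.20 (SE, adjusted p = 0.00521) was not called with the 4 resting libraries alone (adjusted p = 0.0565).

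Slc39a8, a zinc and manganese importer, read 139 and 72.5 in Ctrl, 37.6 and 41.4 with statin, 409.9 and 391 with LPS and 104 and 94.3 with both. It was lower with statin, with a log2 change of -1.33 ± 0.27 (SE, adjusted p = 0.00371) at rest and -2.01 ± 0.27 (SE, adjusted p = 0.000285) under LPS, and LPS raised it by 1.98 ± 0.27. The surface zinc importers Slc39a10 and Slc39a6 went the other way under LPS. Slc39a10 read 3017 and 4063 in Ctrl, 2929.9 and 2399 with statin, 1691 and 1670.1 with LPS and 3498 and 3444 with both and Slc39a6 read 4429 and 4726 in Ctrl, 6538 and 5696 with statin, 2992 and 3019.8 with LPS and 5192 and 5281 with both. Ctl LPS was the lowest group for each, with a statin effect under LPS of 1.05 ± 0.14 (SE, adjusted p = 0.000242) for Slc39a10 and 0.80 ± 0.07 (SE, adjusted p = 2.96e-05) for Slc39a6. The interaction of Slc39a10 was 1.45 ± 0.20 (SE, adjusted p = 0.000358). Slc31a2, a copper carrier of late endosomes, read 949 and 1299 in Ctrl, 1425 and 1921 with statin, 10551 and 10679 with LPS and 6748 and 6982 with both and rose with LPS by 3.26 ± 0.16 (SE, adjusted p = 2.64e-07) without statin and 2.05 ± 0.16 (SE, adjusted p = 1.89e-05) with it.

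Of the 37 mitochondrial carriers of the Slc25 family, 8 rose (21.6%) and 8 fell with statin at rest, each by less than 2-fold. Under LPS statin raised 14 and lowered 14, of which 3 and 4 passed 2-fold, and LPS raised 12 and lowered 15 without statin and raised 8 and lowered 17 with it. Medians of the family, in that order, were -0.0008, -0.07, -0.05 and -0.15. Slc25a22, which takes glutamate into mitochondria, gave 1405 and 1281 in Ctrl, 1333 and 1228 with statin, 8982 and 8995 with LPS and 1589 and 1651 with both. Only the ctl LPS libraries stood out, near 9000, and the other 6 lay between 1228 and 1651. The LPS change without statin was 2.74 ± 0.07 (SE, adjusted p = 5.94e-09), the statin change under LPS -2.47 ± 0.07 (SE, adjusted p = 1.15e-07) and the interaction -2.40 ± 0.10 (SE, adjusted p = 1.24e-06). The LPS change with statin was 0.34 ± 0.07 (SE, adjusted p = 0.00374), and it was not called with equal totals (-0.0218, adjusted p = 0.796) or with ctl LPS replicate 1 and statin replicate 2 left out (0.28, adjusted p = 0.0686). Slc25a10, which exchanges dicarboxylates for phosphate, gave 2147 and 2404 in Ctrl, 2101 and 2225 with statin, 635 and 645 with LPS and 2115 and 1857 with both. Here ctl LPS alone was low, with an LPS change of -1.83 ± 0.09 (SE, adjusted p = 1.9e-07), a statin change under LPS of 1.63 ± 0.09 (SE, adjusted p = 1.29e-06) and an interaction of 1.70 ± 0.12 (SE, adjusted p = 1.02e-05).

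Slc25a37, mitoferrin 1, which brings iron into mitochondria, read 1986 and 2412 in Ctrl, 2546 and 2575 with statin, 15969.5 and 16333 with LPS and 11255 and 10279 with both. It rose with LPS by 2.88 ± 0.09 (SE, adjusted p = 1.81e-08) without statin and 2.07 ± 0.09 (SE, adjusted p = 6.68e-07) with it. Slc25a45 and Slc25a42 fell with LPS, the former with a log2 change of -2.57 ± 0.09 and -1.88 ± 0.09, the latter, which carries coenzyme A, with a log2 change of -2.67 ± 0.22 and -2.10 ± 0.22. Slc25a45 was higher in statin LPS than in ctl LPS by 0.998 ± 0.09. The carriers that serve ATP synthesis moved by small amounts with statin at rest. The ADP and ATP exchangers gave -0.45 ± 0.06 (SE, adjusted p = 0.000513) for Slc25a5 and -0.39 ± 0.06 (SE, adjusted p = 0.000875) for Slc25a4, and the phosphate carrier Slc25a3 gave -0.28 ± 0.07 (SE, adjusted p = 0.00674), a call lost with only the 4 resting libraries (adjusted p = 0.085). Slc25a5 and Slc25a4 are near copies that may share reads. Slc25a1, which exports citrate for lipid synthesis, was higher with statin at rest by 0.69 ± 0.11 (SE, adjusted p = 0.00093).

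Carriers of nucleosides and nucleotide sugars numbered 24, of which 20 are Slc35 members, most of them Golgi and endoplasmic reticulum carriers that supply glycosylation. Statin raised 6 and lowered 4 at rest and raised 15 and lowered 5 under LPS, and LPS raised 7 and lowered 14 without statin and raised 3 and lowered 12 with it. The medians in this order were 0.02, 0.36, -0.48 and -0.24. Slc28a2, which pumps nucleosides in with sodium, gave 107 and 135 in Ctrl, 8.95 and 5.64 with statin, 359.5 and 314 with LPS and 54.8 and 50.5 with both. The statin libraries were the lower ones in each state with no overlap. The change was -3.90 ± 0.25 (SE, adjusted p = 1.48e-05) at rest, the largest fall of the 197 genes, and -2.65 ± 0.25 (SE, adjusted p = 3.03e-05) under LPS. LPS raised it by 1.47 ± 0.25 without statin and 2.72 ± 0.25 with it. Its copy Slc28a2b, listed as Gm14085 and next to it on chromosome 2, read 20.3 and 21.6 in Ctrl, 2.69 and 1.88 with statin, 68.9 and 65.1 with LPS and 6.09 and 10.6 with both, and whether the rows share reads is not known.

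The facilitative nucleoside carriers differed among themselves. Slc29a2, at the cell surface, gave 220.2 and 197 in Ctrl, 163 and 177 with statin, 26.9 and 31.3 with LPS and 117 and 125 with both, and ctl LPS was the one low group. LPS without statin lowered it with a log2 change of -2.80 ± 0.16 (SE, adjusted p = 6e-07), statin LPS stood above ctl LPS by 2.02 ± 0.16 (SE, adjusted p = 1.2e-05), and the interaction was 2.31 ± 0.23 (SE, adjusted p = 5.71e-05). The lysosomal Slc29a3 gave 590.2 and 724 in Ctrl, 692 and 634 with statin, 2055 and 1923 with LPS and 509.8 and 541 with both. Here ctl LPS was the one high group, with an LPS change of 1.60 ± 0.11 (SE, adjusted p = 1.86e-06), a statin change under LPS of -1.92 ± 0.11 (SE, adjusted p = 1.89e-06) and an interaction of -1.94 ± 0.15 (SE, adjusted p = 1.78e-05). Slc29a1 was lower with statin at rest with a log2 change of -0.49 ± 0.09 (SE, adjusted p = 0.00173) and with LPS with a log2 change of -1.03 ± 0.09 (SE, adjusted p = 6.67e-06).

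Carriers of vitamins, lipids, peptides and organic ions numbered 31. Statin raised 13 and lowered 3 at rest and raised 12 and lowered 10 under LPS, and LPS raised 9 and lowered 16 without statin and raised 4 and lowered 12 with it. The class medians, in the order of these comparisons, were 0.20, 0.15, -0.42 and -0.39. Slc15a3 gave 677 and 665 in Ctrl, 5931 and 4994 with statin, 37157 and 36097 with LPS and 26401 and 26910.4 with both. Statin raised it at rest by 3.02 ± 0.08 (SE, adjusted p = 3.85e-07), LPS by 5.77 ± 0.08 (SE, adjusted p = 4.1e-10) without statin and 2.29 ± 0.08 (SE, adjusted p = 2.05e-07) with it, and the interaction was -3.48 ± 0.11 (SE, adjusted p = 7.24e-07). Under LPS its statin change was -0.46 ± 0.08 (SE, adjusted p = 0.00122), which was -0.12 (adjusted p = 0.232) with equal totals and 0.0389 (adjusted p = 0.683) with quantile normalization. Of its exon bases 28.1% lie opposite Tmem132a. Slc15a4, the other lysosomal histidine and peptide carrier, gave 2750.5 and 4268 in Ctrl, 3885 and 3948 with statin, 1266 and 1252 with LPS and 2259 and 2376 with both. It did not follow Slc15a3: LPS without statin lowered it with a log2 change of -1.44 ± 0.17 (SE, adjusted p = 5.62e-05).

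Slc22a4, which takes up the antioxidant ergothioneine, gave 65.6 and 40.2 in Ctrl, 242 and 167 with statin, 21.8 and 20.0 with LPS and 251 and 197 with both. It was higher with statin by 1.95 ± 0.28 (SE, adjusted p = 0.000624) at rest and 3.35 ± 0.28 (SE, adjusted p = 1.68e-05) under LPS, the largest statin rise under LPS among the 184 solute carrier genes with a mean of at least 50, and lower with LPS alone with a log2 change of -1.26 ± 0.28. The ascorbate carrier Slc23a2 gave 7545 and 7807 in Ctrl, 19508 and 12771 with statin, 34374 and 34286 with LPS and 17569.8 and 17427 with both. The statin effect was 1.04 ± 0.16 (SE, adjusted p = 0.000899) at rest and -0.97 ± 0.16 (SE, adjusted p = 0.000886) under LPS, and the interaction -2.01 ± 0.23 (SE, adjusted p = 0.00013). Choline carrier Slc44a1 gave 6033 and 6383 in Ctrl, 5787 and 6472 with statin, 19880 and 20439 with LPS and 9622 and 9649 with both, with ctl LPS highest. Its LPS change without statin was 1.70 ± 0.07, its statin change under LPS -1.06 ± 0.07 (SE, adjusted p = 3.63e-06) and its interaction -1.04 ± 0.10 (SE, adjusted p = 4.15e-05). Slc46a3, of lysosomes, gave 108 and 231 in Ctrl, 95.8 and 142 with statin, 291 and 292 with LPS and 44.4 and 62.4 with both and was lower in statin LPS than in ctl LPS with a log2 change of -2.45 ± 0.35 (SE, adjusted p = 0.000399).

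Carriers of inorganic ions and protons numbered 29, of which statin raised 16 and lowered 4 at rest and raised 9 and lowered 9 under LPS, and LPS raised 15 and lowered 8 without statin and raised 8 and lowered 11 with it. The class medians, in the order of these comparisons, were 0.27, 0.03, 0.43 and -0.05. Slc12a4, which lets potassium and chloride out, gave 2881 and 2715 in Ctrl, 5791 and 5278 with statin, 17182 and 17670.4 with LPS and 17505 and 17571 with both. It was higher with statin at rest by 0.98 ± 0.06 (SE, adjusted p = 1.68e-05) and with LPS by 2.64 ± 0.06 (SE, adjusted p = 4.87e-09), and the LPS groups overlapped, so that the interaction was -0.97 ± 0.09 (SE, adjusted p = 4.56e-05). The sodium bicarbonate carrier Slc4a7 gave 4285 and 4098 in Ctrl, 7326 and 6658 with statin, 42262 and 41304 with LPS and 29668 and 30580.2 with both. It rose with statin at rest by 0.74 ± 0.07 (SE, adjusted p = 6.24e-05) and with LPS by 3.32 ± 0.07 (SE, adjusted p = 1.94e-09) without statin and 2.11 ± 0.07 with it, and the interaction was -1.21 ± 0.09 (SE, adjusted p = 1.57e-05). Slc24a5, an exchanger of calcium for sodium known from pigment cells, gave 889 and 1600.5 in Ctrl, 254 and 238 with statin, 314 and 341 with LPS and 282 and 337 with both, and 39.5% of its exon bases lie opposite Myef2. Ctrl alone was high: statin at rest lowered it with a log2 change of -2.27 ± 0.24 (SE, adjusted p = 0.000123) and LPS with a log2 change of -1.86 ± 0.24 (SE, adjusted p = 0.000109), and the interaction was 2.19 ± 0.34 (SE, adjusted p = 0.000734).

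Slc26a11, a sulfate and chloride carrier, gave 309 and 368 in Ctrl, 378 and 405 with statin, 42.8 and 40.1 with LPS and 164 and 157 with both. Ctl LPS was the low group, with a log2 change of -2.99 ± 0.14 (SE, adjusted p = 1.53e-07) against Ctrl, and statin LPS stood above it by 1.92 ± 0.14 (SE, adjusted p = 6.58e-06), an interaction of 1.71 ± 0.19 (SE, adjusted p = 0.000131). The sodium and proton exchanger Slc9a9, of endosomes, gave 264 and 223 in Ctrl, 94.9 and 164 with statin, 364 and 309 with LPS and 74.8 and 62.4 with both and was lower with statin under LPS with a log2 change of -2.28 ± 0.25 (SE, adjusted p = 8.27e-05). The phosphate importer Slc20a1 was higher with statin by 0.53 ± 0.12 (SE, adjusted p = 0.00488) at rest and 0.76 ± 0.12 (SE, adjusted p = 0.000537) under LPS. The scaffold gene Slc9a3r2 gave 147 and 261 in Ctrl, 867 and 796 with statin, 76.4 and 67.6 with LPS and 492 and 436 with both, higher with statin by 2.08 ± 0.24 (SE, adjusted p = 0.000184) and 2.67 ± 0.24 (SE, adjusted p = 2.29e-05) and lower with LPS alone with a log2 change of -1.43 ± 0.24.

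Carriers and partners without an Slc symbol were taken as a list of 26, of which 21 reached a mean of 10. Slco2b1 and Emb lay under it, and Flvcr1, Flvcr2 and Ankh were not found under these symbols, so their levels are not known. At rest statin raised 6 and lowered 5 of the 21, beside 30.4% and 25.7% of all genes. Under LPS it raised 6 and lowered 6, beside 31.4% and 32.9%. LPS raised 5 and lowered 8 without statin, beside 39.9% and 37.6%, and raised 4 and lowered 9 with it, beside 29.2% and 29.0%. Slco4a1, an organic anion carrier, gave 25035 and 33626 in Ctrl, 50789.8 and 50597 with statin, 1442 and 1505 with LPS and 23753 and 22396 with both. Ctl LPS was far below the other groups, with an LPS change of -4.30 ± 0.12 (SE, adjusted p = 9.49e-09), a statin change under LPS of 3.97 ± 0.12 (SE, adjusted p = 1.21e-07) and an interaction of 3.16 ± 0.17 (SE, adjusted p = 2.82e-06). Txnip, which restrains glucose uptake, gave 22789 and 25721 in Ctrl, 24361 and 32125 with statin, 34816 and 35287 with LPS and 12477 and 11422 with both, and was lower with statin under LPS with a log2 change of -1.55 ± 0.13 (SE, adjusted p = 1.4e-05). The lysosomal cystine exporter Ctns was higher with statin by 0.37 ± 0.08 (SE, adjusted p = 0.00394) at rest and 1.12 ± 0.08 (SE, adjusted p = 5.51e-06) under LPS. Slco3a1 was at 0 in Ctrl, statin and ctl LPS library 2, and read 188 in ctl LPS library 1 and 42.6 and 49.1 in statin LPS, the libraries with C1q and fibroblast reads, whose part in it was not tested.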

How the data were processed

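RNA of 8 libraries (2 each of Ctrl, statin, ctl LPS and statin LPS) was depleted of ribosomal RNA and sequenced from stranded libraries. The build was mm10, and the tools listed by the submitters' processing notes are DESeq2 1.18.1, HTSeq 0.9.1 and STAR 2.5.3, though the study's methods name other counting software, and the strand setting is not given in the sources used here. The signal used is the normalized count the authors deposited, the reads of a gene divided by a size factor of the library. Further deposited tables of the authors' fold changes and p-values for the statin comparisons, and 12 columns of per-sample values that match no library here, were not used. The 8 columns were matched by group and replicate number.

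One read was worth 0.781 to 1.33, and 100% of values were whole within 0.01 reads, so reads were recovered and also tested. The main test was limma 3.58.1 (R 4.3.3) on log2(normalized count + 1), fitted as 4 group means over all 8 libraries (residual degrees of freedom, 4) with trended eBayes, over 11647 genes with a mean of at least 10. P-values are two-sided, adjusted by Benjamini-Hochberg over those genes, and called under 0.05. Values after ± are standard errors of log2 changes on that scale, which understates changes of low genes. With edgeR 4.0.16 (quasi-likelihood) on the reads, 3320 genes were higher and 3339 lower in statin than in Ctrl, and 3787 and 3688 in statin LPS than in ctl LPS. Alternatives were a pseudocount of 5, no filter, a mean of at least 50, the libraries of the contrast only, equal totals, quantile normalization, edgeR, DESeq2 1.42.0, a replicate block and leaving out each library. Leaving out ctl LPS replicate 1 and statin replicate 2 together was chosen after seeing the data.

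Symbols, positions and exon lengths are from GENCODE M21 on GRCm38, where all 197 symbols matched. Substrate classes were set by Slc family number. Named genes were the 6 largest rises and 6 largest falls of each pairwise comparison among called genes with a mean of at least 50 and no overlap of groups, the 5 largest interactions each way, a fixed list of well-known carriers (those whose result adds nothing, and 1 result that is not reported here, are left out) and the 2 highest of each class. The genes and lists were chosen with earlier results of these data known.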

Additional observations from a re-analysis of the deposited data

Results flagged for a closer look

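By the interaction term of the limma fit (adjusted p under 0.05), the statin effect was higher under LPS than at rest in 52 solute carrier genes (26.4%, beside 25.5% of all genes). It was lower under LPS in 54 (27.4%, beside 30.1% of all genes). With equal totals these counts were 106 and 34, beside 5935 and 1892 of the 11647 genes tested. Among the genes with a mean of at least 50, the largest differences on the log2 scale were each past an adjusted p of 0.05. They were negative for Slc6a4 (-5.50 ± 0.69), Slc15a3 (-3.48 ± 0.11), Slc39a2 (-3.27 ± 0.28), Slc30a1 (-2.87 ± 0.11) and Slc45a3 (-2.64 ± 0.24). They were positive for Slc29a2 (2.31 ± 0.23), Slc24a5 (2.19 ± 0.34), Slc26a11 (1.71 ± 0.19), Slc25a10 (1.70 ± 0.12) and Slc16a6 (1.69 ± 0.23). Of these 10 genes, Slc6a4, Slc39a2, Slc30a1 and Slc45a3 were higher with statin at rest and lower with statin under LPS. The rise of Slc39a2 at rest was not called in the limma fit of the 4 resting libraries alone (adjusted p = 0.0565). That of Slc6a4 stood against only 2 Ctrl reads, and this gene reached the mean of 50 only through its ctl LPS libraries. Slc15a3 was higher with statin at rest, and its change of -0.46 ± 0.08 under LPS was not called with equal totals or with quantile normalization. Values are given with the SE of the fit.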

How the results depend on the processing

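Of 157 log2 changes printed above for solute carrier genes, 154 were called, and 143 of these kept their direction and call in every alternative run. The other 11 are those of Slc7a1 and Slc6a9 (LPS without statin), Slc11a1 (LPS without and with statin), Slc25a22 (LPS with statin), Slc6a6 and Slc15a3 (statin under LPS), and Slc16a1, Slc40a1, Slc39a2 and Slc25a3 (statin at rest), whose values stand with them. The 3 that were not called are the interaction of Slc7a11 and both statin changes of Slc3a2, and each was called in some alternative. Reversals came with quantile normalization, to -0.12 for Slc7a1, 0.0108 for Slc6a6 and 0.0389 for Slc15a3, with equal totals, to -0.14 for Slc11a1 without statin and -0.0218 for Slc25a22, and for Slc3a2 at rest, which lay between -0.41 and 0.32 when each library in turn was left out. Equal totals moved counts of called genes by more than 1.5 times: 38 lower for statin under LPS, 38 higher and 134 lower for LPS without statin, 28 higher and 123 lower for LPS with statin, and 106 higher and 34 lower for the interaction. With only the libraries of the comparison 20 genes were lower with statin at rest, and with both ctl LPS replicate 1 and statin replicate 2 left out this count was 22 and that for LPS with statin 53. Over all fits that left out libraries these counts lay between 22 and 41 and between 53 and 89. Other counts stayed within 1.5 times. The cause was not tested, and counts over all genes with equal totals stand with each comparison above. With 2 libraries a group, each fit without a library leaves a lone one that is assumed to vary like the other groups.

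Libraries of the same replicate number shared little of their deviation from the group means (correlations between groups from -0.0513 to 0.0959). This cannot show whether they were cultured or handled together. A replicate block gave 76 higher and 32 lower at rest, 81 and 70 for statin under LPS, 74 and 80 for LPS without statin, 52 and 80 with it and 49 and 53 for the interaction, and changed no call of the named genes.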
